A study of Mus musculus with 23 samples.

Results

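The Hox genes of mouse embryonic stem cells were followed here in cells without BACH1, a transcription factor that is controlled by heme and binds DNA together with small MAF proteins. Members were all genes of the deposited RNA table whose symbol is Hoxa, Hoxb, Hoxc or Hoxd followed by a number, with no filter on expression, which gave 39 of the 25124 listed genes: 11 in Hoxa, 10 in Hoxb, 9 in Hoxc and 9 in Hoxd. The RNA came from 2 groups of 3 libraries each. The knockout libraries were Bach1 -/- cells made with CRISPR/Cas9, and the WT libraries were unedited cells of the same E14Tg2A line, an embryonic stem cell line that can be kept without feeder cells. Both groups were labelled as grown in serum medium with leukemia inhibitory factor on gelatin, with no differentiation treatment. The series' design text calls the libraries biological triplicates, and the titles name neither a clone nor a culture, so p-values measure the spread between these 3 libraries per group and a difference cannot be told apart from a difference between 2 cell lines. Chromatin data of the same series were given in an older genome build for which no gene annotation was at hand, and Hox peaks are not analysed here.

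Hox genes encode homeodomain transcription factors that give cells their position along the body axis. In mammals they lie in 4 clusters, in which low-numbered genes act early and towards the head and high-numbered genes act late and towards the tail, and genes of the same number in different clusters (paralogs) have related proteins. In embryonic stem cells the clusters are known as Polycomb-covered and nearly silent, poised for activation by retinoic acid, WNT and caudal factors. Values are TPM (a transcript's share of the library, per unit length), which are scaled for transcript length, so that genes can be compared within a library, but which keep no read depth, so no counting error can be given.

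As a check of the samples, Bach1 itself was listed at 1.689, 1.762 and 2.045 TPM in knockout libraries and at 2.35, 2.502 and 2.702 TPM in WT libraries, and fell by 0.31 on the log2(TPM + 1) scale (limma, Benjamini-Hochberg adjusted p = 0.00282), a call that median-of-ratios scaling did not keep (adjusted p = 0.0545). An edit that removes the protein need not remove the RNA, so this level does not check the edit. All 10 stem cell markers looked up (among them Pou5f1, Sox2 and Nanog) passed the filter and summed to 6541 to 6692 TPM in knockout libraries and 5246 to 5411 TPM in WT libraries, sums carried by Dppa5a and Pou5f1. Of the 10, 4 were higher and 6 lower in knockout cells, with a median change of -0.50, and Nanog averaged 116 ± 4.73 TPM in knockout cells and 306 ± 2.52 TPM in WT cells (SD, n = 3 each). Each library had between 11475 and 11695 genes at 1 TPM or more. RNA levels differed widely between the genotypes: of 12196 genes that reached 1 TPM in at least 3 of the 6 libraries, 83.0% passed an adjusted p of 0.05, with 28.3% higher and 54.8% lower in knockout cells. After quantile normalization the split was 4612 higher and 5087 lower, against 3446 higher and 6681 lower as deposited, and the median log2 change over tested genes moved to -0.03 from -0.20. Counts of Hox genes are therefore given beside these backgrounds.

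Hox RNA was low in both genotypes and much lower in knockout cells. Summed over all 39 genes it came to 4.711, 4.851 and 3.97 TPM in knockout libraries and to 46.893, 45.404 and 47.557 TPM in WT libraries. The groups did not overlap, and the WT mean of 46.6 ± 1.10 TPM was 10.3 times the knockout mean of 4.51 ± 0.473 TPM (SD, n = 3 each). No Hox gene averaged 1 TPM or more in knockout cells, where the highest mean was 0.547 TPM, against 11 that did in WT cells. The median member averaged 0.0487 TPM in knockout cells and 0.386 TPM in WT cells. Mean levels were lower in knockout cells for 32 of the 39. In bulk RNA, fewer cells that transcribe a Hox gene and less of its RNA per cell cannot be told apart.

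For 29 of the 39 genes all 3 knockout libraries lay under all 3 WT libraries, for 2 they lay above, and for 8 the groups overlapped. Over all listed genes, 33.8% were separated downwards and 20.6% upwards. Level matters for such counts, since a gene near 0 can hardly separate. Of the 19 Hox genes whose WT mean lay from 0.1 to under 1 TPM, 16 were separated downwards and 3 overlapped, beside 32.3% separated downwards among all listed genes of that WT level. The 9 genes under 0.1 TPM in WT cells held 2 separated downwards, 2 upwards and 5 that overlapped. A fit by limma over all 20190 genes with any signal, without a filter on low values, called 27 Hox genes lower, 2 higher and left 10 uncalled, beside 39.5% of all genes called lower and 23.5% called higher. The settings tried on this unfiltered fit, such as leaving out a library, were chosen after the data had been seen.

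The filter let 11 Hox genes through, among them Hoxb7, Hoxb9, Hoxb13, Hoxc4, Hoxc9, Hoxc10, Hoxc11, Hoxc12, Hoxc13 and Hoxd9. Each passed only through its WT libraries, so its knockout level had to be lower, and the number of them called carries no weight. All 11 were called lower, against 54.8% of all tested genes. The WT level sets which genes enter, as Hoxc9 (1.158 TPM on average in WT cells) stood just inside and Hoxb4 (0.956 TPM) just outside.

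**Figure D1:**
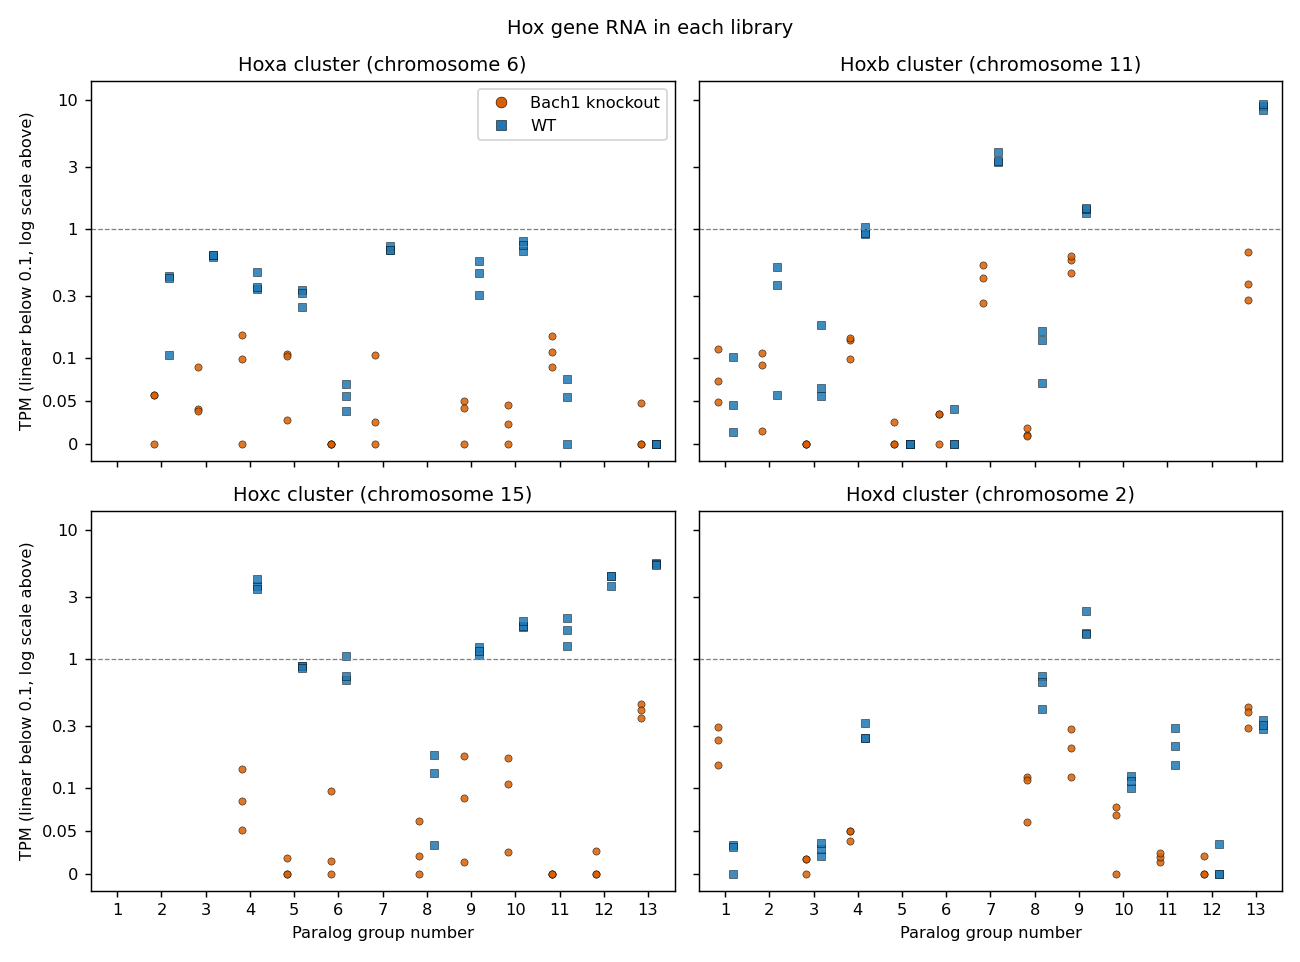
TPM of the Hox genes reported here in each library, by paralog group number (horizontal axis) and cluster (panels), with knockout libraries as orange circles and WT libraries as blue squares; the vertical axis is linear below 0.1 TPM and logarithmic above, and the dashed line marks 1 TPM. Circles stay under the line for every gene drawn, while the squares of 10 genes average above it.

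Promoters of 3 genes are shown because they stand for the patterns described: Hoxc4 with the largest ratio between the genotypes among genes above 0 in every library, Hoxd9 as the most abundant Hoxd gene, and Hoxd1 as the clearest exception in the other direction. The 150 bases before each annotated start are given 5′ to 3′ from RefSeq tables of GRCm38.p6, with CG dinucleotides, the target of DNA methylation, in capitals.
Hoxc4, chr15:103034245-103034394, plus strand: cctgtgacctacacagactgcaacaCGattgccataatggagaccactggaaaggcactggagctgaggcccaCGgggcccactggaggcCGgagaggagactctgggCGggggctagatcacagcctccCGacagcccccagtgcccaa
Hoxd9, chr2:74697613-74697762, plus strand: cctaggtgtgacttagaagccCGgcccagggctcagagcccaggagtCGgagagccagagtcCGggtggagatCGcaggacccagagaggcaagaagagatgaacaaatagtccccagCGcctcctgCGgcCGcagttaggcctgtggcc
Hoxd1, chr2:74762830-74762979, plus strand: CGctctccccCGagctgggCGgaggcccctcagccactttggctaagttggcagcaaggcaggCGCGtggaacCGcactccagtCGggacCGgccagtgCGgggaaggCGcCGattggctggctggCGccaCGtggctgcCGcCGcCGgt
These stretches hold 5 CG in Hoxc4, 7 in Hoxd9 and 16 in Hoxd1.

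The promoter table held 24 windows of 300 bases for 22 of the 39 Hox genes, with a median of 14.5 CG (4 to 45), beside a median of 7 over all 32851 windows. The letters TGACTCA, the core of the element that BACH1 and its relatives bind, were searched on both strands. They stood in 1 Hox window (4.17%) and in 5.2% of all windows. The window was that of Hoxd11, and the 50 bases before its start, chr2:74679508-74679557 on the plus strand, are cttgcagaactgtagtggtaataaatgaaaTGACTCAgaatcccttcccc with the match in capitals, 20 bases before the start. The start meant here is that of the matching window, which held 4 CG. Hoxd11 had another window at a different start, chr2:74682073-74682372, with 25 CG and no match. A match is only a run of letters, and its absence elsewhere concerns these windows alone.

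The Hoxc cluster on chromosome 15 had the most Hox RNA in WT cells and the least in knockout cells. Its 9 genes summed to 0.877, 0.845 and 0.564 TPM in knockout libraries and to 19.73, 19.012 and 20.603 TPM in WT libraries. The WT mean (19.8 ± 0.797 TPM) was 26.0 times the knockout mean (0.762 ± 0.172 TPM; SD, n = 3 each). Hoxc genes made up 16.9% of all Hox TPM in knockout cells and 42.4% in WT cells. Of the 9 genes, 8 were separated downwards and Hoxc8 overlapped.

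At the tail end of the cluster, Hoxc13, needed for hair and nail formation, was at 0.447, 0.402 and 0.346 TPM in knockout libraries and at 5.559, 5.419 and 5.318 TPM in WT libraries. The 3 libraries of each genotype lay close together, and Hoxc13 fell by 2.20 on the log2(TPM + 1) scale (SE 0.0595, limma adjusted p = 2.64e-09). Hoxc12 was listed at 0, 0.026 and 0 TPM in knockout libraries, against 4.366, 3.672 and 4.35 TPM in WT libraries. It was thus almost without signal in knockout cells, and it fell by 2.34 (SE 0.0728, limma adjusted p = 5.76e-09). Hoxc11, a hindlimb gene, was listed at 0 in all knockout libraries and at 1.248, 1.68 and 2.085 TPM in WT libraries. No fold is given for Hoxc11 against values of 0, and its limma adjusted p was 1.95e-06.

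In the middle of the cluster, Hoxc10, which acts in lumbar motor neurons and the hindlimb, was at 0.106, 0.17 and 0.025 TPM in knockout libraries and at 1.756, 1.798 and 1.951 TPM in WT libraries. Its groups lay far apart, and it fell by 1.37 (SE 0.0722, limma adjusted p = 1.64e-07). Hoxc9, which sets thoracic motor neuron identity, was at 0.088, 0.175 and 0.014 TPM in knockout libraries and at 1.077, 1.241 and 1.155 TPM in WT libraries. The knockout values of Hoxc9 scattered more than its WT values relative to their mean, without overlap, and it fell by 0.98 (SE 0.0754, limma adjusted p = 1.98e-06). Hoxc8, a thoracic gene, was low in both genotypes, at 0, 0.021 and 0.061 TPM in knockout libraries and 0.13, 0.18 and 0.033 TPM in WT libraries, which overlapped. Its unfiltered limma adjusted p was 0.0938. It was 0.0121 without WT library 3 and between 0.1175 and 0.2616 without any other library.

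At the head end, Hoxc4, which patterns the neck and upper trunk vertebrae, was at 0.14, 0.051 and 0.085 TPM in knockout libraries and at 3.668, 3.469 and 4.132 TPM in WT libraries. The WT mean was 40.8 times the knockout mean, and the gene fell by 2.12 (SE 0.0732, limma adjusted p = 1.08e-08). Its neighbours Hoxc5 and Hoxc6 stayed under the filter but were also separated. Hoxc5 was listed at 0, 0 and 0.018 TPM in knockout libraries and 0.88, 0.874 and 0.841 TPM in WT libraries. Hoxc6 was at 0.096, 0 and 0.015 TPM in knockout libraries and 1.046, 0.679 and 0.738 TPM in WT libraries. Levels in WT cells thus dipped at Hoxc8 between higher levels at both ends of the cluster, as the plot of TPM by library shows.

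The Hoxb cluster on chromosome 11 summed to 1.792, 1.97 and 1.352 TPM in knockout libraries and to 14.768, 15.539 and 15.588 TPM in WT libraries. The WT mean (15.3 ± 0.460 TPM) was 8.97 times the knockout mean (1.70 ± 0.318 TPM; SD, n = 3 each). A single gene, Hoxb13, made up 57.7% of the WT sum. Of the 10 genes, 6 were separated downwards, none upwards, and Hoxb1, Hoxb2, Hoxb5 and Hoxb6 overlapped.

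Hoxb13, which acts in the tail bud and the prostate, was the most abundant Hox RNA of WT cells. It was at 0.37, 0.66 and 0.282 TPM in knockout libraries and at 9.013, 8.272 and 9.215 TPM in WT libraries. The groups lay far apart, with a WT mean 20.2 times the knockout mean, and Hoxb13 fell by 2.78 (SE 0.0972, limma adjusted p = 1.17e-08). Hoxb9, which shapes the rib cage, was at 0.572, 0.613 and 0.455 TPM in knockout libraries and at 1.324, 1.411 and 1.45 TPM in WT libraries. It had the highest knockout mean of all Hox genes and fell by 0.63 (SE 0.067, limma adjusted p = 1.87e-05), the smallest change among the 11. Hoxb7 was at 0.52, 0.415 and 0.266 TPM in knockout libraries and at 3.282, 3.925 and 3.335 TPM in WT libraries. Hoxb7 was clearly separated and fell by 1.69 (SE 0.0884, limma adjusted p = 1.54e-07).

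The rest of the cluster was quieter. Hoxb8 was at 0.01, 0.009 and 0.018 TPM in knockout libraries and 0.07, 0.161 and 0.138 TPM in WT libraries. Hoxb5 and Hoxb6 did not exceed 0.04 TPM in any library. Hoxb4, known for its effect on blood stem cells, was at 0.138, 0.098 and 0.141 TPM in knockout libraries and 0.912, 1.03 and 0.925 TPM in WT libraries. It missed the filter narrowly, and in the unfiltered fit its difference was -0.80 (limma adjusted p = 5.45e-06). At the head end, Hoxb3 was listed at 0 in all knockout libraries and at 0.065, 0.18 and 0.055 TPM in WT libraries, and its call in the unfiltered limma fit (adjusted p = 0.0326) did not hold without any one knockout library (0.0948 to 0.0984). Hoxb2 overlapped because the first WT library, at 0.057 TPM, lay among knockout values of 0.109, 0.092 and 0.015 TPM, while the other two WT libraries were at 0.506 and 0.369 TPM. Without that WT library Hoxb2 was called lower in the unfiltered limma fit (adjusted p = 0.00313, against 0.0984 with it). Leaving out any other library gave no call (limma adjusted p between 0.1799 and 0.2938). Hoxb1, the hindbrain gene that responds early to retinoic acid, was at 0.073, 0.048 and 0.116 TPM in knockout libraries and 0.045, 0.014 and 0.101 TPM in WT libraries, also overlapping.

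The Hoxa cluster on chromosome 6 summed to 1.096, 1.08 and 0.878 TPM in knockout libraries and to 9.042, 7.721 and 7.633 TPM in WT libraries. The WT mean (8.13 ± 0.789 TPM) was 7.99 times the knockout mean (1.02 ± 0.122 TPM; SD, n = 3 each). Of the 11 genes, 9 were separated downwards, Hoxa11 upwards, and Hoxa13 overlapped.

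The Hoxa genes described here stayed under 1 TPM in every library. Among them Hoxa3, Hoxa7 and Hoxa10 were the most abundant in WT cells. Hoxa3 was at 0.04, 0.089 and 0.038 TPM in knockout libraries and 0.606, 0.626 and 0.626 TPM in WT libraries. Hoxa7 was at 0.104, 0 and 0.025 TPM in knockout libraries and 0.679, 0.729 and 0.682 TPM in WT libraries. Hoxa10, a gene of the lumbar region and the uterus, was at 0, 0.023 and 0.045 TPM in knockout libraries and 0.798, 0.671 and 0.749 TPM in WT libraries. In these 3 genes the WT libraries agreed closely and no knockout library came near them.

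Hoxa2, Hoxa4, Hoxa5, Hoxa6 and Hoxa9 had lower levels and the same separation, with the unfiltered limma fit calling each of them lower (adjusted p between 0.000628 for Hoxa9 and 0.0241 for Hoxa2). The call of Hoxa2 did not hold when any one library other than WT library 1 was left out (0.0755 to 0.104). Hoxa6 was listed at 0 in all knockout libraries and at 0.055, 0.038 and 0.069 TPM in WT libraries. Hoxa11, which shapes the forearm and the uterus, ran the other way at very low levels, with 0.089, 0.11 and 0.147 TPM in knockout libraries and 0.054, 0.075 and 0 TPM in WT libraries. Its adjusted p of 0.0475 in the unfiltered limma fit did not hold when any one library other than WT library 2 was left out (0.0554 to 0.138). Hoxa13 had signal in a single knockout library, at 0.047 TPM, and was listed at 0 in the other five.

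The Hoxd cluster on chromosome 2 had the least RNA in WT cells and the smallest ratio between genotypes. It summed to 0.946, 0.956 and 1.176 TPM in knockout libraries and to 3.353, 3.132 and 3.733 TPM in WT libraries. The WT mean (3.41 ± 0.304 TPM) was 3.32 times the knockout mean (1.03 ± 0.130 TPM; SD, n = 3 each). Hoxd genes made up 22.7% of all Hox TPM in knockout cells and 7.31% in WT cells. Of the 9 genes, 6 were separated downwards, Hoxd1 upwards, and Hoxd12 and Hoxd13 overlapped.

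Hoxd9, one of the paralogs that pattern the upper limb segment, made up 54.0% of the WT sum. It was at 0.121, 0.203 and 0.287 TPM in knockout libraries and at 1.599, 1.57 and 2.348 TPM in WT libraries. The third WT library was the highest, without overlap between the groups, and Hoxd9 fell by 1.23 (SE 0.110, limma adjusted p = 5.71e-06). Hoxd8 was at 0.121, 0.06 and 0.115 TPM in knockout libraries and 0.736, 0.662 and 0.405 TPM in WT libraries. Hoxd4, Hoxd11, Hoxd10 and Hoxd3 were also separated downwards at lower levels. The unfiltered limma fit called Hoxd4 lower (adjusted p = 0.000204), as it did Hoxd11 (adjusted p = 0.00157). It did not call Hoxd10 (adjusted p = 0.0611) or Hoxd3 (adjusted p = 0.291). For Hoxd10 the limma adjusted p was 0.0475 without knockout library 3 and between 0.06854 and 0.1482 without any other library.

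Both ends of the Hoxd cluster departed from the rest. Hoxd13, the digit gene at the tail end, was at 0.423, 0.292 and 0.384 TPM in knockout libraries and 0.335, 0.287 and 0.304 TPM in WT libraries. These groups overlapped, with a difference of 0.06 (unfiltered limma adjusted p = 0.279). The adjusted p of that limma fit was 0.0466 without knockout library 2 and between 0.2549 and 0.5565 without any other library. Hoxd13 had the highest knockout mean of the cluster, at 0.366 TPM. Hoxd1, which acts in pain-sensing neurons, was at 0.15, 0.296 and 0.233 TPM in knockout libraries and 0.033, 0.031 and 0 TPM in WT libraries. Every knockout library was above every WT library, and the difference was 0.26 in the unfiltered limma fit (adjusted p = 0.00206). That call held when any one library was left out, with adjusted p up to 0.0152. Hoxd12 did not exceed 0.034 TPM in any library.

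**Figure D2:**
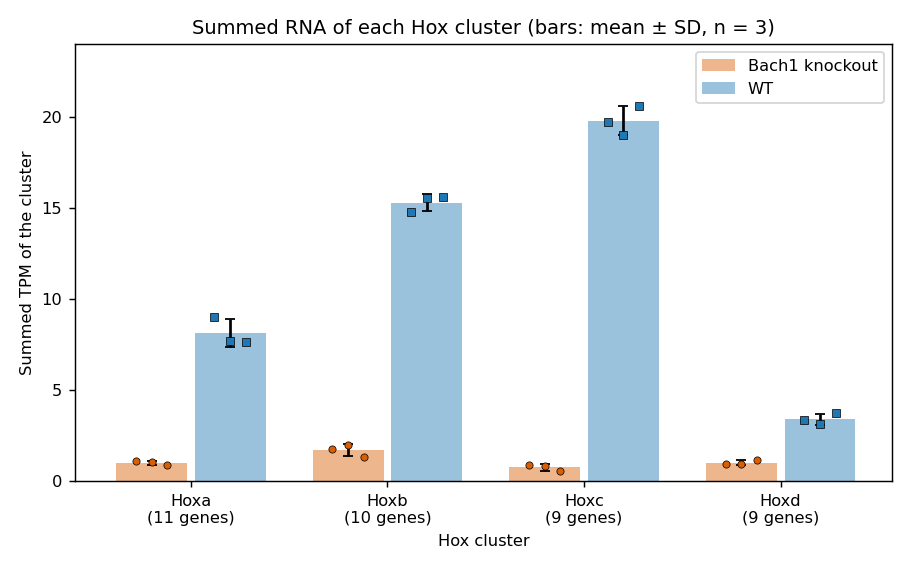
Summed TPM of the genes of each Hox cluster in knockout (orange, left) and WT (blue, right) cells, with bars for the mean, error bars for the SD of 3 libraries and points for libraries. The knockout bars all lie between 0.762 and 1.70 TPM, whereas the WT bars range between 3.41 TPM for Hoxd and 19.8 TPM for Hoxc.

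Across clusters, genes were grouped by position in the series of paralogs. Groups 1 to 3, the head end, summed to 1.02 ± 0.0844 TPM in knockout cells and 5.99 ± 0.531 TPM in WT cells. Groups 4 to 8 summed to 1.08 ± 0.238 TPM in knockout cells and 12.5 ± 0.224 TPM in WT cells. Groups 9 to 13, the tail end, summed to 2.41 ± 0.361 TPM in knockout cells and 28.2 ± 1.497 TPM in WT cells (SD, n = 3 each). The ratio of WT to knockout means was 5.88, 11.5 and 11.7 in that order. In groups 1 to 3, 5 of 8 genes were separated downwards, with 12 of 15 in groups 4 to 8 and 12 of 16 in groups 9 to 13. Within a group, paralogs differed: in group 13, Hoxb13 and Hoxc13 were among the most abundant Hox RNAs of WT cells, Hoxd13 lay between 0.287 and 0.423 TPM over both genotypes, and Hoxa13 was at or near 0. In group 1, Hoxb1 overlapped and Hoxd1 was higher in knockout cells.

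**Figure D3:**
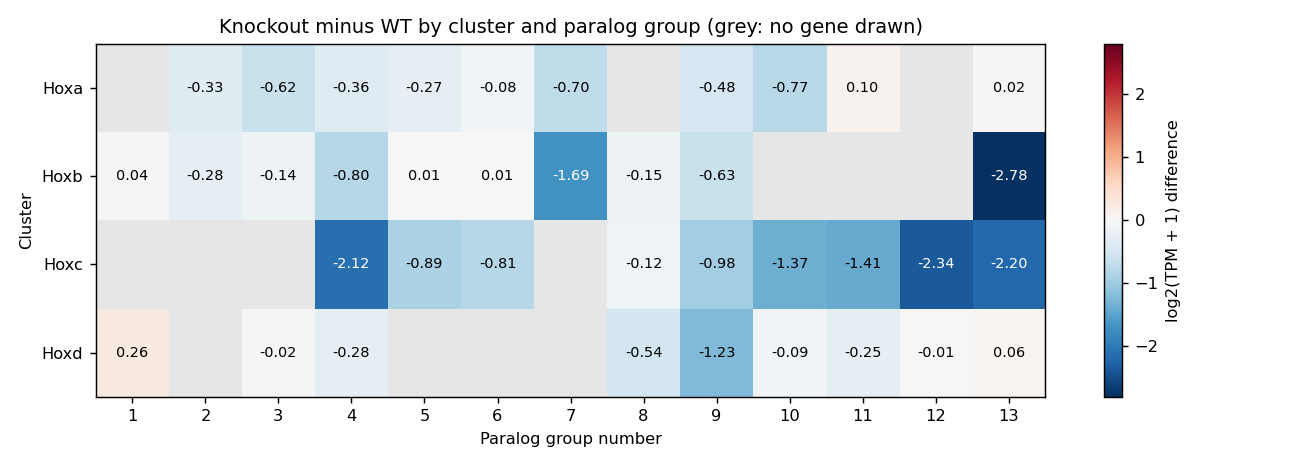
Difference of log2(TPM + 1), knockout minus WT, for the Hox genes reported here by cluster (rows) and paralog group number (columns), from the fit without a filter on low values; blue is lower and red higher in knockout cells, and grey marks combinations with no gene or none drawn. Genes near 0 TPM have small differences on this scale whatever their ratio, and the darkest cells are Hoxb13 (-2.78), Hoxc12 (-2.34), Hoxc13 (-2.20) and Hoxc4 (-2.12).

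The authors' deposited table of transcripts lower in knockout cells held 16 Hox genes, and their deposited table of higher transcripts held none. These lists hold 10.0% and 7.49% of all listed genes. The log2 fold changes in the authors' deposited table ran between -5.43 for Hoxc4 and -1.30 for Hoxb9, with Hoxb13 at -4.61 and Hoxc10 at -4.08. The 16 included 7 genes under the filter used here, among them Hoxa3 at -3.97 and Hoxd11 at -3.47 in the authors' deposited table. Hoxc11 and Hoxc12 were not in it. The sources used here do not give the rule behind the authors' list.

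Reads of neighbouring Hox genes cannot always be assigned to 1 gene. In the RefSeq annotation, the spans of 16 of the 39 members overlap another listed gene, as Hoxa3 does with Hoxa4, Hoxa5 and Hoxa6, Hoxb3 with Hoxb4, and Hoxd3 with Hoxd4. The table lists 1 transcript per gene, the sources used here give no strand setting, and how such reads were split was not tested.

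Noncoding RNAs of the clusters were read from a list of 16, of which 3 passed the filter. Mir196a-1, a microRNA gene in the Hoxb cluster, was at 0.751, 0.743 and 0.714 TPM in knockout libraries and at 3.35, 2.809 and 2.836 TPM in WT libraries. It passed only through its WT libraries, did not overlap, and fell by 1.20 (limma adjusted p = 3.23e-07). Hotairm1, an RNA of the head end of Hoxa, was at 3.424, 1.495 and 1.436 TPM in knockout libraries and 1.961, 2.487 and 2.075 TPM in WT libraries. Halr1, which lies near that end as well, was at 3.245, 3.756 and 2.303 TPM in knockout libraries and 4.171, 2.514 and 2.449 TPM in WT libraries. Both overlapped between the genotypes (limma adjusted p = 0.726 for Hotairm1 and 0.880 for Halr1). Without knockout library 1, where it was highest, Hotairm1 was called lower, with a difference of -0.36 (limma adjusted p = 0.00555). Hotair, an RNA of the Hoxc cluster, was listed at 0 in all knockout libraries and at 0.083, 0.038 and 0.094 TPM in WT libraries. Mir10a, Mir10b, Mir196a-2, Mir196b and Mir615 were listed at 0 everywhere.

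The microRNAs of the clusters fall into families that are known to target Hox messages, and their mature sequences from RefSeq (GRCm38.p6) are given for the miR-196 and miR-10 families, with the seed (bases 2 to 8), the part that pairs with targets, in capitals.
mmu-miR-196a-5p: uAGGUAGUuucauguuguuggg
mmu-miR-196b-5p: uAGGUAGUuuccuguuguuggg
mmu-miR-10a-5p: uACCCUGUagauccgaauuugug
mmu-miR-10b-5p: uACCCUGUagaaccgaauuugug
Mir196a-1 on chromosome 11 and Mir196a-2 on chromosome 15 give the same mature miR-196a-5p, and Mir196b on chromosome 6 gives a miR-196b-5p with the same seed. The libraries were made from polyA RNA, so the TPM of Mir196a-1 counts reads of longer transcripts over the hairpin, not the mature microRNA.

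Genes beside the clusters were compared to see how far the lower levels reached. Of the 5 genes on each side of each cluster, 40 in all, 39 were in the table and 33 were tested. Of these 33, 22 were lower, 7 higher and 4 uncalled, beside 54.8% lower and 28.3% higher over all tested genes. The median change of the 33 was -0.30, beside -0.20 over all tested genes. Of the 33, 4 were lower by at least 2-fold, beside 10.4% of all tested genes. Skap2, an adaptor protein gene at the head end of the Hoxa cluster, was at 8.451, 7.704 and 8.242 TPM in knockout libraries and at 22.991, 21.801 and 22.836 TPM in WT libraries. It fell by 1.37 (limma adjusted p = 9.04e-09). Calcoco2, an autophagy receptor gene near Hoxb13, averaged 44.8 ± 0.727 TPM in knockout cells and 115 ± 5.92 TPM in WT cells (SD, n = 3 each) and fell by 1.34 (limma adjusted p = 3.41e-09). The other two were Copz2, which fell by 1.90 (limma adjusted p = 8.89e-10), and Nfe2, a relative of BACH1, which fell by 1.96 (limma adjusted p = 9.32e-08).

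Not all flanking genes were lower. Calcoco1, next to Hoxc13, averaged 18.5 ± 0.343 TPM in knockout cells and 11.7 ± 0.828 TPM in WT cells (SD, n = 3 each) and rose by 0.62 (limma adjusted p = 3.50e-06). Evx1, a homeobox gene next to Hoxa13 that is active in the primitive streak, was at 1.091, 1.019 and 0.954 TPM in knockout libraries and at 0, 0.02 and 0.018 TPM in WT libraries. It had fewer than 3 libraries at 1 TPM and so was outside the filter, and the unfiltered limma fit gave a difference of 1.00 (adjusted p = 1.45e-06). Skap1, next to Hoxb1, was at 0.249, 0.353 and 0.407 TPM in knockout libraries and 0.043, 0.027 and 0.135 TPM in WT libraries. Calcoco1, Evx1 and Skap1 were picked after their values were seen. The genes at the ends of Hoxa, Skap2 and Evx1, thus went in opposite directions. In the list of neighbouring genes used here, 2 of 16 tested were higher and 13 lower, with 4 higher and 11 lower after quantile normalization. The shares over all tested genes were 28.3% higher and 54.8% lower before that normalization. Hnrnpa1 (-0.56) and Atp5g3 (-0.56) were among those lower.

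**Figure D4:**
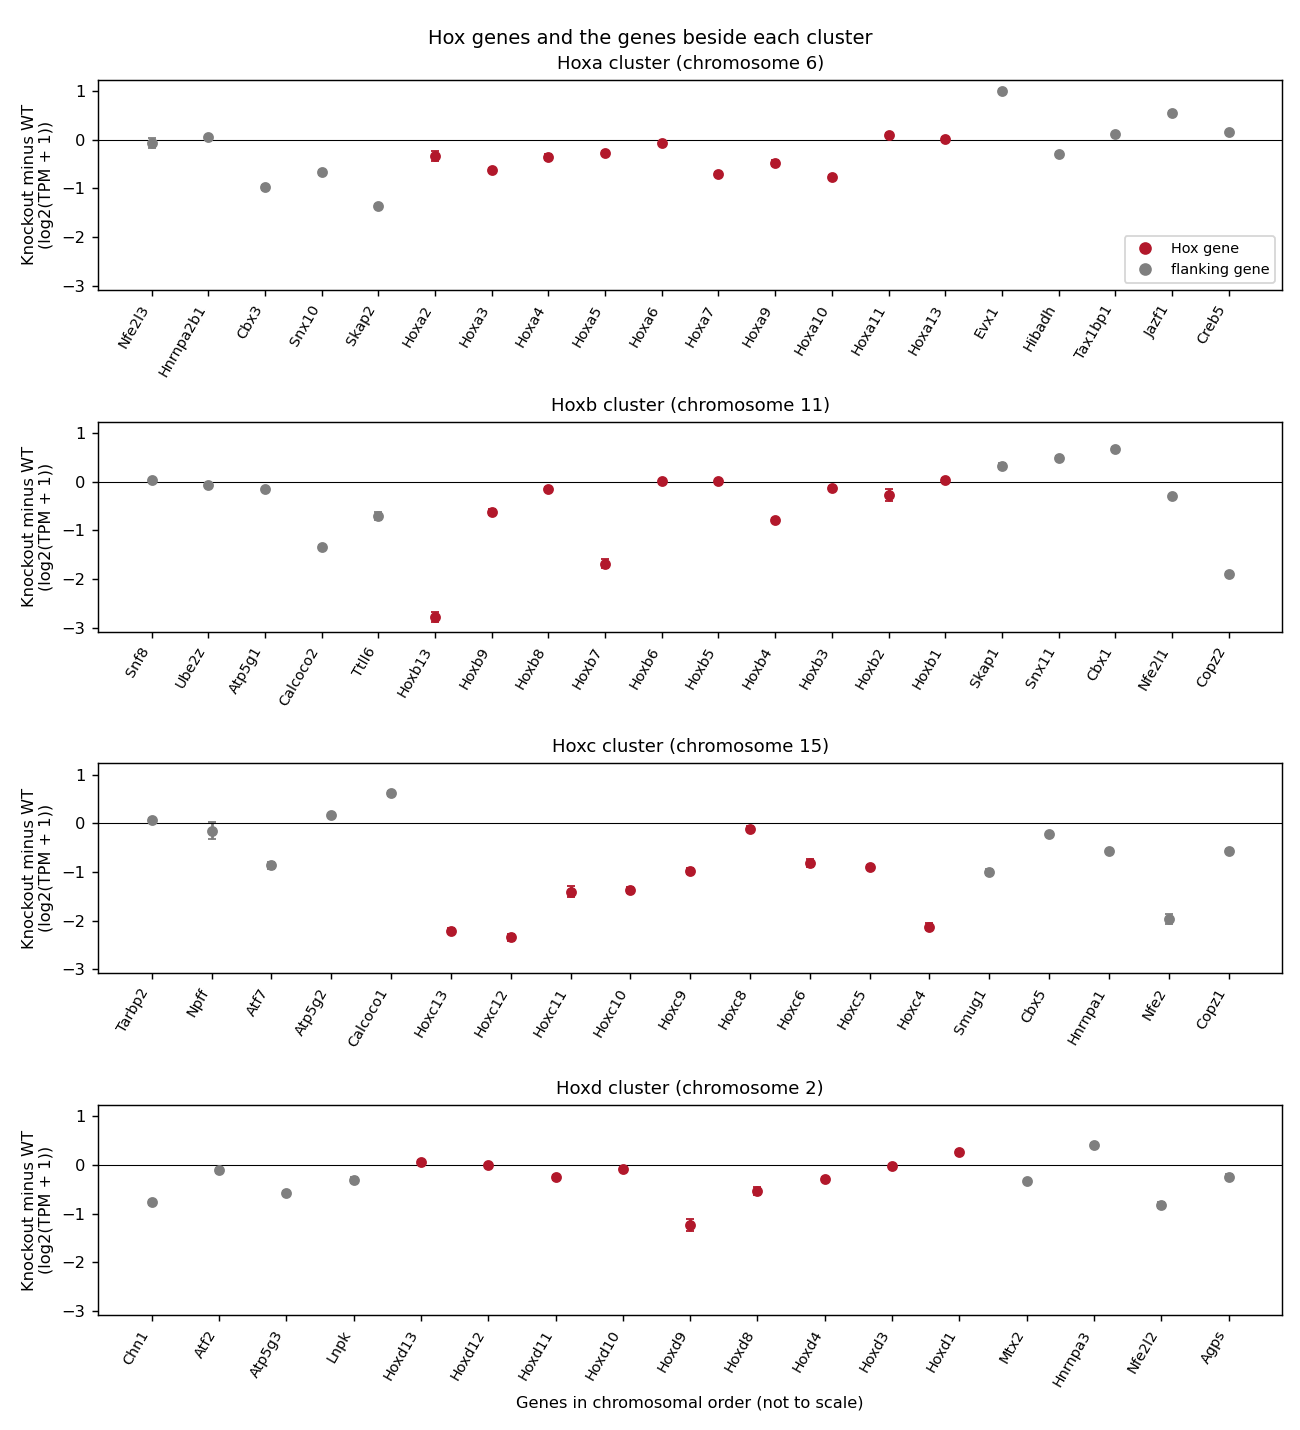
Difference of log2(TPM + 1), knockout minus WT (vertical axis), with its SE, for Hox genes (red) and up to 5 genes on each side of their cluster (grey), in chromosomal order and not to scale, from the fit without a filter on low values; genes at 0 in every library, not in the table or not reported here are left out. The Hoxc genes lie below 0 throughout, Evx1 beside Hoxa13 reaches 1.00, and Hoxd1 and Hoxa11 are the Hox genes called above 0.

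Factors known to act on Hox genes were read from a list of 22, of which 11 were tested, with 7 higher, 3 lower and 1 uncalled. The median change was 0.45, beside -0.20 over all tested genes, of which 28.3% were higher and 54.8% lower. Cdx1, a caudal factor that activates Hox genes in the posterior embryo, was at 0.406, 0.387 and 0.331 TPM in knockout libraries and at 34.809, 34.856 and 36.714 TPM in WT libraries. It had the smallest p of the list and fell by 4.73 (SE 0.051, limma adjusted p = 2.09e-11). The related Cdx2, which stayed under the filter, was at 0.319, 0.433 and 0.326 TPM in knockout libraries and 0.604, 0.901 and 0.73 TPM in WT libraries. T, the mesoderm factor brachyury, was at 0.31, 0.209 and 0.201 TPM in knockout libraries and 4.366, 5.058 and 4.375 TPM in WT libraries, and fell by 2.17 (limma adjusted p = 9.57e-09). Cdx1 and T passed the filter only through their WT libraries and so had to be lower.

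Of the 7 higher genes of this list, Rarg and Crabp1 had the smallest p-values. Rarg, a retinoic acid receptor, was at 91.527, 86.978 and 90.395 TPM in knockout libraries and 14.095, 12.112 and 13.464 TPM in WT libraries. It rose by 2.67 (SE 0.0513, limma adjusted p = 3.85e-10). Crabp1, a cytoplasmic retinoic acid carrier, averaged 40.4 ± 2.36 TPM in knockout cells and 13.4 ± 0.325 TPM in WT cells (SD, n = 3 each) and rose by 1.52 (limma adjusted p = 5.20e-09). Aldh1a2, which makes retinoic acid and is named here after its values were seen, averaged 0.343 ± 0.114 TPM in knockout cells and 1.94 ± 0.286 TPM in WT cells (SD, n = 3 each) and fell by 1.13 (limma adjusted p = 2.94e-06). Aldh1a2 passed the filter only through its WT libraries and so had to be lower.

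Chromatin factors that act at Hox clusters (Polycomb, trithorax and CTCF) were all 24 tested. Of them 9 were higher, 13 lower and 2 uncalled, beside 28.3% higher and 54.8% lower over all tested genes. After quantile normalization 10 were higher and 9 lower. Utf1, which in mouse embryonic stem cells limits Polycomb at poised genes, was at 495.34, 480.34 and 496.79 TPM in knockout libraries and 38.71, 36.247 and 40.957 TPM in WT libraries. It rose by 3.63 (SE 0.0405, limma adjusted p = 2.36e-11). Phc1, a subunit of Polycomb repressive complex 1, averaged 181 ± 0.957 TPM in knockout cells and 37.9 ± 1.42 TPM in WT cells (SD, n = 3 each; limma adjusted p = 6.57e-11). Jarid2, a cofactor of Polycomb repressive complex 2, averaged 68.6 ± 1.23 TPM in knockout cells and 22.4 ± 0.518 TPM in WT cells (SD, n = 3 each; limma adjusted p = 4.30e-10). Ezh2, the methyltransferase of that complex, averaged 33.1 ± 1.03 TPM in knockout cells and 55.8 ± 1.05 TPM in WT cells (SD, n = 3 each; limma adjusted p = 5.07e-08). Suz12, a core subunit, averaged 31.6 ± 1.59 TPM in knockout cells and 55.3 ± 1.97 TPM in WT cells (SD, n = 3 each; limma adjusted p = 1.91e-07). Eed, another core subunit, averaged 60.7 ± 2.25 TPM in knockout cells and 55.7 ± 1.99 TPM in WT cells (SD, n = 3 each; limma adjusted p = 0.0134). Wdr5, a core subunit of the trithorax-type methyltransferases, averaged 49.0 ± 0.808 TPM in knockout cells and 95.9 ± 0.0764 TPM in WT cells (SD, n = 3 each; limma adjusted p = 2.04e-09). Ezh2, Suz12 and Eed were added after their values were seen.

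TALE homeodomain proteins are the DNA-binding partners of Hox proteins. Of 9 genes, 8 were tested, with 3 higher, 3 lower and 2 uncalled, with a median of -0.06. After quantile normalization 4 were higher and 2 lower, and the median was 0.14. Pbx4 was at 13.14, 11.225 and 11.117 TPM in knockout libraries and 4.311, 5.17 and 5.385 TPM in WT libraries, and rose by 1.11 (limma adjusted p = 2.09e-06). Pbx3 averaged 2.94 ± 0.334 TPM in knockout cells and 1.48 ± 0.158 TPM in WT cells, and rose (SD, n = 3 each; limma adjusted p = 4.98e-05). Pknox2 was at 0.155, 0.19 and 0.105 TPM in knockout libraries and 1.371, 1.273 and 1.336 TPM in WT libraries, and fell by 1.02 (limma adjusted p = 4.92e-07). Pknox2 passed the filter only through its WT libraries and so had to be lower. The counts of partner genes stand beside 28.3% higher and 54.8% lower over all tested genes. The libraries of the 2 genotypes did not overlap in these 3 genes, which were named for their small p-values, so this adds no weight.

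**Figure D5:**
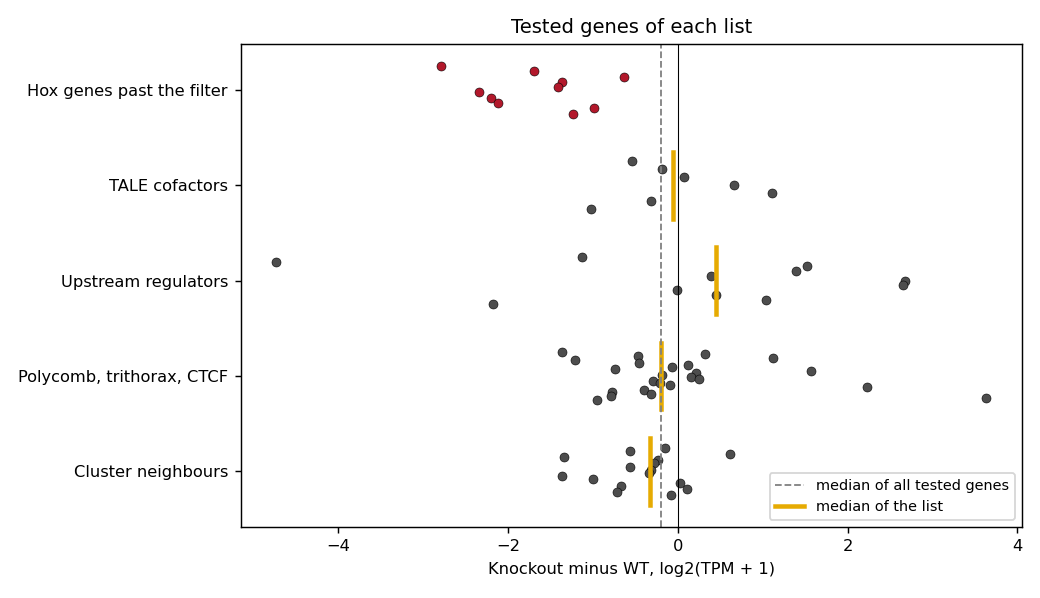
Difference of log2(TPM + 1), knockout minus WT (horizontal axis), of the tested genes reported here among the Hox genes (red) and 4 related lists (black), with the median of each whole related list in yellow and the median of all tested genes (-0.20) dashed. The Hox points, genes that the filter admitted through WT libraries alone, lie left of the dashed line, whereas upstream regulators spread between Cdx1 at -4.73 and Rarg at 2.67.

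Markers of other cell types that could carry Hox RNA did not move together. In each list some members were higher in knockout cells, some were lower and some overlapped. The list for posterior and neuromesodermal cells, the embryonic cells in which Hox genes are normally switched on, had 3 of 10 members tested, all 3 lower (Cdx1, T and Nkx1-2). Each of the 3 passed the filter only through its WT libraries and so had to be lower. The list summed to 3.406 to 3.603 TPM in knockout libraries and 42.1 to 44.1 TPM in WT libraries, most of it Cdx1. Its other 7 members were under 1 TPM in every library, and Fgf8 was higher in knockout libraries (0.758, 0.951 and 0.913 TPM) than in WT libraries (0, 0.17 and 0.156 TPM). Hes7 was likewise at 0.897, 0.522 and 0.903 TPM in knockout libraries and 0.193, 0.089 and 0.109 TPM in WT libraries. Tbx6 and Wnt3a also lay higher in every knockout library, Cdx2 lay lower, and Cdx4 and Msgn1 overlapped. Fgf8 and Hes7 were picked for their values after these were seen. Of 20 fibroblast markers, 9 were tested, 5 higher and 4 lower. Loxl1 and Twist1 passed the filter only through knockout libraries and Pdgfrb only through WT libraries, so their directions were fixed. The list summed to 119 to 124 TPM in knockout libraries and 293 to 297 TPM in WT libraries, of which Vim and Fn1 made up most in WT cells. The list's median change was 1.23, opposite in sign to its sum, and 11 members, among them Col1a1, Col1a2 and Col3a1, were under 1 TPM everywhere. Neural markers had 2 of 10 tested (Tubb3 and Nes), both lower, with sums of 51.6 to 53.5 TPM in knockout libraries and 78.2 to 81.0 TPM in WT libraries. These sums were mostly Tubb3 and Nes. Under the filter, Pax6 lay higher and Sox1 lower in every knockout library, and the other neural markers overlapped. Endoderm markers had 1 of 7 tested (Hhex), which was lower, with sums of 3.88 to 4.58 TPM in knockout libraries and 6.55 to 7.24 TPM in WT libraries. Most of the WT sum was Hhex, and Cer1 was at 0 throughout. Under the filter, Foxa2 lay higher and Cxcr4 lower in every knockout library, and the other endoderm markers overlapped. These counts stand beside 28.3% higher and 54.8% lower over all tested genes. Over all listed genes, 20.6% were separated upwards and 33.8% downwards. The part of any of these cell types in the Hox levels was not tested.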

How the data were processed

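RNA from 3 knockout and 3 WT libraries was analysed. The deposited values are TPM per gene, 1 RefSeq transcript each, and the authors' deposited lists hold log2 fold changes with p-values. Per the submitters' processing notes, Trim Galore, HISAT2, HOMER and limma were used on mm9, and neither the step of each tool nor a strand setting is given in the sources used here. TPM keep no depth, so precision rests on the 3 libraries, and the listed TPM sum to 604964 to 606200 per library. None of 15 widely expressed genes was listed at 0. Gapdh, 1 of the 15, differed widely between libraries of the same genotype. It was at 17.863, 73.168 and 70.725 TPM in knockout libraries and at 23.583, 25.678 and 61.083 TPM in WT libraries. The cause was not tested, so the TPM of a single gene can vary for reasons other than genotype.

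Genes that reached 1 TPM in 3 or more libraries were kept, TPM were turned into log2(TPM + 1), and the genotypes were compared in limma 3.58.1 (eBayes with trend, R 4.3.3), with Benjamini-Hochberg adjustment over 12196 genes and calls at 0.05. Fold changes on this scale understate those of low genes. On simulated data with 12196 genes, log2 changes of 0.25, 0.5, 1 and 2 were recovered in 52, 86, 96 and 100% of 50 genes each, with 9 false calls of 176. Sums over genes and separation of groups (all 3 values on one side) are descriptions. Promoters and microRNAs came from RefSeq tables of GRCm38.p6, whose gene table matched all 39 symbols. Figures used Python 3.11.15 and matplotlib 3.10.9.

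Members and gene lists were chosen with earlier results of these data known. Library values are given for Hox genes averaging 1 TPM or more in a genotype and for others that a result turns on. Up to 4 tested genes of smallest p are named per related list, and further names are marked. The levels of 2 genes are not reported here, although counts, sums and medians include them. Peaks at the Hox clusters, planned if an annotation of mm9 was at hand, were not analysed here. Alternatives were other pseudocounts, filters, scalings, a replicate block and leaving out each library.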

Additional observations from a re-analysis of the deposited data

How the results depend on the processing

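The 11 Hox genes that passed the filter were called lower under all 14 alternatives computed for each, with limma adjusted p up to 0.000243. Each had passed only through its WT libraries and so had to be lower, so the number called carries no weight here either. The log2 ratios of the 4 cluster sums kept their sign. Median-of-ratios scaling moved 3 of them by more than the pooled SD of libraries within a genotype, to -2.79 for Hoxa, -2.95 for Hoxb and -1.52 for Hoxd, while quantile normalization and leaving out any one library moved none that far. A minimum mean of 5 TPM left no Hox gene, and over all genes it gave 2112 higher and 4430 lower. Requiring a 2-fold change gave 809 higher and 1271 lower over all genes and kept 9 Hox genes, a count under the same limit of the filter. Without the filter, 2 Hox genes were called higher and 27 lower. Settings on that fit were chosen after the data had been seen, and leaving out one library at a time gave 1 to 2 higher and 25 to 28 lower. Over 29 other tested genes named, 419 of 424 values kept their call, with 1 call lost (Bach1) and 4 gained (Hotairm1 in 1 case, Gbx2 in 3). The uncalled differences of Hotairm1 and Halr1 took the other sign under 4 settings each. The deviations of same-numbered libraries correlated at -0.00302, 0.0696 and -0.000791, and those of differently numbered libraries between -0.0643 and 0.0672. The highest value was thus a same-numbered pair, by a small margin. So few pairs cannot decide whether the replicate numbers of the labels pair the libraries. With the replicate block, 3457 genes were higher and 6692 lower, the 11 Hox genes were still called, and the fit without the filter called 1 Hox gene higher, since Hoxa11 had an adjusted p of 0.0999. Depth is unknown, so for Hox genes near 0 TPM a value of 0 cannot be told apart from a very low level.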

Other observations

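Homeobox genes related to the Hox family, which lie outside the clusters apart from Evx1 and Evx2, differed in direction. Of 15 genes, 3 were tested. En2, a midbrain and hindbrain gene, was at 0.689, 0.823 and 0.567 TPM in knockout libraries and 6.068, 5.836 and 5.68 TPM in WT libraries, and fell by 2.02 (limma adjusted p = 1.17e-08). Cdx1 also fell. En2 and Cdx1 passed the filter only through their WT libraries and so had to be lower. Gbx2 was not called (adjusted p = 0.149 by limma), although it was called higher after quantile normalization (adjusted p = 0.00367) and without knockout library 3 (adjusted p = 0.0195). Among the 12 under the filter, 5 (Gsx1, Gbx1, En1, Evx1 and Meox1) had every knockout library above every WT library, at levels near or under 1 TPM, and Cdx2 and Mnx1 had every knockout library below every WT library. Over all listed genes, 20.6% were separated upwards and 33.8% downwards. Gsx1, a forebrain gene, was at 0.343, 0.255 and 0.326 TPM in knockout libraries and 0, 0 and 0.029 TPM in WT libraries. Meox1, a somite gene, was at 0.413, 0.398 and 0.753 TPM in knockout libraries and 0.042, 0 and 0 TPM in WT libraries. En1 was at 0.456, 0.599 and 0.49 TPM in knockout libraries and 0.229, 0.078 and 0.061 TPM in WT libraries. These 3 were picked after their values were seen, and the cause was not tested.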
